A study of Mus musculus with 46 samples.

Results

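The 9 genes described here were the nucleotide receptors P2ry12, P2ry13, P2ry6, P2ry14, P2rx4 and P2rx7, the adenosine receptor Adora3, the ectoenzyme Entpd1 and the lysophospholipid receptor Gpr34. They were taken by symbol from 3 tables of expression (15695 genes for SVZ tissue, 15285 for the LPS experiment on sorted cells and 19930 for the GLOBAL experiment), and each table listed all 9. In SVZ tissue, RNA was measured after microglia were depleted with PLX3397, an inhibitor of the microglial survival receptor CSF1R, and after early recovery. In myeloid cells sorted from whole hemispheres, it was measured after the brain had refilled with repopulating cells, at rest and after lipopolysaccharide (LPS), a bacterial wall component that drives an acute inflammatory response. All mice were male C57BL/6.

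The SVZ groups were control (vehicle, by the study's methods), 14 day PLX3397 (600 ppm in chow) and 5 day recovery (14 days of PLX3397 followed by 5 days of vehicle), with n = 5 mice each. In the LPS experiment, CD11b+CD45int cells came from control mice (n = 3, 5 and 4 at 0, 6 and 24 hr) and from mice given 14 days of PLX3397 and 28 days of recovery (n = 4 at each time, 600 ppm), which the labels call AltRepop and which are named WM repopulating cells here. LPS was given intraperitoneally at 0.33 mg/kg, and the 0 hr mice received none. The GLOBAL experiment compared control cells (n = 4) with cells from mice given PLX3397 for 7 days and left to recover for 28 days (n = 3, RegularRepop in the labels). The study's legends give an age of 2 months for the mice of both sorted experiments. In the GLOBAL legend this is the age of the mice put on vehicle or PLX3397. An age at collection, after drug and recovery, is not given separately. The sort gate takes any CD11b+ cell with intermediate CD45, and each library was made from such cells in bulk.

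Purinergic signalling starts when cells release nucleotides. ATP opens the P2X channels, of which P2rx7 needs high ATP, while ADP, UDP and UDP-glucose act on the G protein-coupled P2Y receptors. Entpd1 (CD39) on the cell surface degrades ATP and ADP to AMP, and adenosine formed from AMP acts on receptors such as Adora3. In microglia, P2ry12 steers processes towards sources of ADP and is widely used as a marker of the resting state, P2ry13 is a related ADP receptor, P2ry6 is a UDP receptor linked to phagocytosis, and P2ry14 is a receptor for UDP-glucose. Gpr34 responds to lysophosphatidylserine and is also enriched in microglia.

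P2ry12 (chr3:59216272-59262871), P2ry13 (chr3:59207892-59210882) and P2ry14 (chr3:59113855-59153618) are neighbours on the minus strand of chromosome 3 in GRCm38 (GENCODE vM21), and all 3 lie inside Med12l, which is on the plus strand. The exons of P2ry13 and P2ry14 share no base with another gene, and those of P2ry12 share 9 with Med12l. The other members are Adora3 (chr3:105870858-105908926, plus), P2ry6 (chr7:100937630-100974649, minus), P2rx4 (chr5:122707544-122729738, plus), P2rx7 (chr5:122643911-122691432, plus), Entpd1 (chr19:40612366-40741602, plus) and Gpr34 (chrX:13632089-13640858, plus), the last inside Cask, which is on the minus strand. Adora3 shares 779 of its 3729 annotated exon bases with Tmigd3 on the same strand, so its values are uncertain where the counting could not separate these genes.

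The promoter windows of the chromosome 3 neighbours are shown because P2ry12 and P2ry13 moved together in these data and P2ry14 did not. Each window runs from 250 bases before to 50 after a RefSeq start site (GRCm38.p6) and is written 5′ to 3′ on the minus strand, with motif matches in capitals. For P2ry14, the most upstream of 4 annotated starts is given.
P2ry12, chr3:59262936-59263235: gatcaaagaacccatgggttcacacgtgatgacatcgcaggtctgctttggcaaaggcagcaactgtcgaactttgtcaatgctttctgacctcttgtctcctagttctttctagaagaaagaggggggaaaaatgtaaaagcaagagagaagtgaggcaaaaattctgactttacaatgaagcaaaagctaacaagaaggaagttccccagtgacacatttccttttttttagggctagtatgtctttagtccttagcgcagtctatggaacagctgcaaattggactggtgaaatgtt
P2ry13, chr3:59210833-59211132: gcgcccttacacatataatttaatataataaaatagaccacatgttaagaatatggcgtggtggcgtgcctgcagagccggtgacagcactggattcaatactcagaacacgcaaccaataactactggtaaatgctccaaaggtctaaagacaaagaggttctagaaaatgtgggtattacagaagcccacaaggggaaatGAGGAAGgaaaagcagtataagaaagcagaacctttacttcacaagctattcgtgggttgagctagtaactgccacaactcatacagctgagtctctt
P2ry14, chr3:59153443-59153742: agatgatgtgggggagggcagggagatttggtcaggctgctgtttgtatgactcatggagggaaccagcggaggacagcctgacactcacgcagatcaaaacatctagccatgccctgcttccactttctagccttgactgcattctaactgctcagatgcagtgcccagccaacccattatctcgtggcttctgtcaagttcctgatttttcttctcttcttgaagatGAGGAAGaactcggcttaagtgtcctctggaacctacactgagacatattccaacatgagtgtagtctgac
The motifs searched on both strands were GAGGAAG (PU.1 core), GAAANNGAA (interferon type), CTATTTATA (MEF2 type) and GGGNNTTCC (NF-kB type). They matched 13.6%, 8.56%, 0.429% and 5.82% of 32841 promoter windows, respectively. The capitals mark the PU.1 core, which matched once in the P2ry13 window (first base at -48 from the start) and once in this P2ry14 window (-21). No searched motif matched the P2ry12 window, and the most downstream P2ry14 start had an NF-kB type match (-35). A match describes the letters in the window and does not show binding.

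Libraries held 4.57 to 10.5 M reads in SVZ tissue, 4.68 to 10.6 M in the LPS experiment and 1.91 to 5.04 M in the GLOBAL experiment, as recovered from the steps in the FPKM values. The 3 tables were normalised separately, so levels are compared only within a table. FPKM is corrected for gene length and depth, and tests were run with limma on log2(FPKM + 1), with Benjamini-Hochberg adjustment over all genes tested. A gene was called at an adjusted p under 0.05. All 8 microglia genes of the marker list (Tmem119, Cx3cr1, Csf1r, Aif1, Sall1, Siglech, Fcrls and Itgam) were above 0 FPKM in every sorted library, and their summed level was 9372 to 11660 FPKM in control microglia at 0 hr and 4124 to 5888 at 6 hr. The sorted libraries also held neutrophil genes at 411 to 14150 FPKM (S100a8, S100a9, Ngp, Camp and Ly6g summed, with Ly6g at 0 in some 6 hr libraries of both arms), and monocyte genes (Ly6c2, Ccr2, Plac8, Chil3 and Fn1) at 101 to 3208 FPKM. Control 6 hr replicate 2 held the lowest P2ry12, P2ry13 and P2rx7 and the highest Adora3 of its group. Control 24 hr replicate 4 held the lowest P2ry13, P2rx4, P2rx7, P2ry6 and P2ry14. Of these, only its level of Adora3 set control 6 hr replicate 2 apart by Dixon's test.

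In SVZ tissue, 5 members fell after 14 days of PLX3397 and stayed low at 5 days of recovery, whereas P2rx4, P2rx7 and P2ry14 were not called. P2ry12 was at 18.1, 25.5, 27.5, 21.2 and 24.5 FPKM in the 5 control mice. It was at 0.286, 0.282, 0.707, 0.537 and 0.388 FPKM in the 14 day PLX3397 mice and at 0.238, 0.519, 0.589, 0.663 and 0.271 FPKM in the recovery mice. No treated or recovering mouse came near the control range. The mean was 1.88% ± 0.777 (SD, n = 5) of control after 14 days and 1.95% ± 0.818 at recovery, on 5 to 17 and 3 to 15 reads per library. The log2(FPKM + 1) difference from control was -4.08 ± 0.13 (SE, limma adjusted p = 7.45e-13) and -4.06 ± 0.13 (adjusted p = 5.03e-12), respectively.

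P2ry13 averaged 7.32 ± 1.41 FPKM in control SVZ (SD, n = 5), 0.112 ± 0.0713 after 14 days and 0.235 ± 0.127 at 5 day recovery. This was 1.53% and 3.21% of control, on 1 to 5 and 2 to 11 reads per library. Gpr34 fell from 6.72 ± 1.44 FPKM to 0.102 ± 0.126 and 0.291 ± 0.162 FPKM. P2ry6 fell from 2.47 ± 0.417 FPKM to 0.0625 ± 0.0427 and 0.320 ± 0.247 FPKM. For all 3 receptors the control mice were above every other mouse, and their log2(FPKM + 1) differences from control ran from -2.89 (P2ry13) to -1.70 (P2ry6) after 14 days and from -2.74 (P2ry13) to -1.41 (P2ry6) at recovery, each called. Adding 1 before the log compresses these values, since the treated levels lay well under 1 FPKM.

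Entpd1 kept a larger share of its control mean than P2ry12, P2ry13, Gpr34 and P2ry6. It was at 5.51 ± 0.968 FPKM in control, 2.26 ± 0.248 after 14 days and 2.78 ± 0.372 at recovery (SD, n = 5), which was 41.0% ± 4.51 and 50.5% ± 6.75 of the control mean. The groups did not overlap with control, and the difference was -0.99 ± 0.11 (limma adjusted p = 1.99e-05) and -0.78 ± 0.11 (adjusted p = 4.13e-04) in log2(FPKM + 1). Both lie inside a log2 limit of 1, under which neither is called. Adora3 was under the expression limit in this tissue and was not tested. With no expression limit it was called lower after 14 days (-0.70, limma adjusted p = 5.40e-05) and at recovery (-0.67, adjusted p = 1.22e-04). It lay between 0.439 and 1.09 FPKM in control (7 to 18 reads), against 0 to 1 read per library after 14 days and 0 to 2 reads at recovery.

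P2rx4, P2rx7 and P2ry14 were not called against control in SVZ tissue at either time. P2rx4 averaged 9.70 ± 1.58 FPKM in control, 9.63 ± 0.698 after 14 days and 11.04 ± 1.07 at recovery. For P2rx4 after 14 days the 95% interval of the log2(FPKM + 1) difference was -0.21 to 0.21. P2ry14 averaged 4.15 ± 0.857, 3.87 ± 0.340 and 4.32 ± 1.13 FPKM, with an interval of -0.38 to 0.25 after 14 days and -0.27 to 0.35 at recovery. P2rx7 averaged 1.82 ± 0.226, 1.59 ± 0.267 and 1.22 ± 0.132 FPKM. At recovery its 5 values (1.06 to 1.35 FPKM) lay below the 5 control values (1.64 to 2.21 FPKM), a difference of -0.34 ± 0.09 that was not called (limma adjusted p = 0.104).

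**Figure D1:**
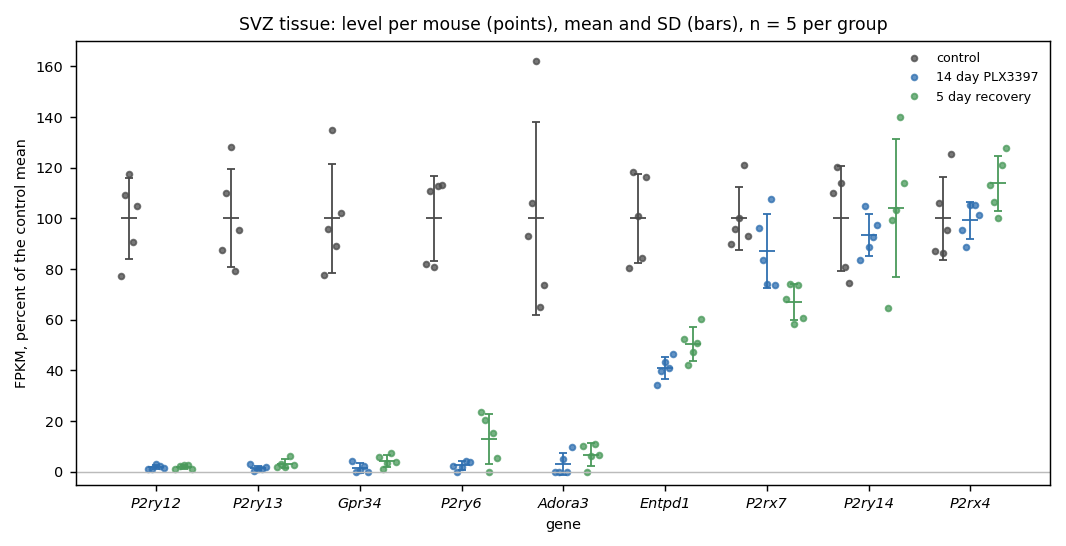
FPKM of each member in SVZ tissue as a percent of the control mean, one point per mouse, with bars for the mean and SD (n = 5 per group). The means of P2ry12, P2ry13, Gpr34, P2ry6 and Adora3 were at or under 12.9% in both PLX3397 groups, those of Entpd1 at 41.0% and 50.5%, and those of P2rx7, P2ry14 and P2rx4 between 67.0% and 113.8%.

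The 5 lower calls of 8 members tested compare with 1.21% of all genes called lower after 14 days, and the 5 at recovery with 1.09%. Groups that did not overlap with control were found for 2.77% of all genes after 14 days and 3.1% at recovery. The median microglia gene of the marker list was at 0.671% ± 0.838 of control after 14 days and at 5.62% ± 1.80 at recovery (SD over 5 mice), and 7 of its 8 genes were called lower in each comparison. Sall1, the gene of the list that was not called, was at 77.0% ± 13.7 of control after 14 days and 71.3% ± 7.23 at recovery. In bulk tissue, fewer microglia and less RNA of these genes per microglia cannot be told apart. Endothelial genes (4 summed), which mark another cell type known to carry Entpd1, were at 148 to 175 FPKM in control, 126 to 167 after 14 days and 133 to 187 at recovery, and border-associated macrophage genes (5 summed) were at 3.48 to 7.39, 1.18 to 2.45 and 1.22 to 2.97 FPKM. Their part in the level of Entpd1 was not tested. Between 5 day recovery and 14 day PLX3397 no member was called by limma (0.325% of all genes were called), while 2 members, P2rx7 (lower) and P2ry6 (higher), had an unadjusted p under 0.05, as did 16.5% of all genes, and voom on the recovered reads called 0 of 8. In the same comparison 4 of the 8 microglia genes were called higher.

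In control microglia at rest, P2ry12 was the most abundant member and P2ry14 had few or no reads. P2ry12 reached 3131, 3242 and 2650 FPKM in the 3 control libraries at 0 hr and made up 54.3% ± 2.17 of the summed level of the 9 genes (SD, n = 3). P2ry13 (941 ± 83.8 FPKM) and Gpr34 (914 ± 175 FPKM) followed and did not differ beyond their spread. P2ry6 (279 ± 34.8) and Entpd1 (246 ± 21.2) came next, also within their spread, then P2rx4 (76.5 ± 7.43), and P2rx7 (37.5 ± 2.97) beside Adora3 (35.6 ± 3.55). P2ry14 had 10 reads in control replicate 1 (0.828 FPKM) and 0 reads in replicates 2 and 3, so its resting level in control microglia rests on a single library.

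After LPS, 5 members fell in both kinds of cells: P2ry12, P2ry13, Gpr34, Entpd1 and P2rx7. In these bulk libraries, a shift in the mix of sorted cells and less RNA of these genes per microglia cannot be told apart. The summed monocyte genes were at 101 to 328 FPKM at 0 hr and 1151 to 2278 at 6 hr in control microglia. For WM repopulating cells this sum was at 124 to 390 and 1158 to 3208 FPKM. In control microglia at 6 hr, 5 of 9 members were called lower, against 21.1% of all genes, and 2 higher (21.4%). In WM repopulating cells, 5 were called lower (19.5%) and 1 higher (19.3%). P2ry12 in control microglia at 6 hr was at 301, 175, 397, 216 and 333 FPKM, a mean of 9.45% of the 0 hr level. At 24 hr it was at 511, 379, 782 and 506 FPKM, a mean of 18.1%. Every LPS library was below every 0 hr library, and over all genes the groups did not overlap for 38.1% at 6 hr and 29.5% at 24 hr (39.9% and 25.1% in WM repopulating cells). The log2(FPKM + 1) difference from 0 hr was -3.45 ± 0.23 at 6 hr (limma adjusted p = 9.93e-11) and -2.51 ± 0.24 at 24 hr (adjusted p = 2.06e-07). Without control 6 hr replicate 2, which held 175 FPKM, the 6 hr difference was -3.295 (limma adjusted p = 1.05e-10).

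The same gene in WM repopulating cells was at 2133, 2542, 2797 and 2765 FPKM at 0 hr, at 334, 450, 438 and 342 FPKM at 6 hr and at 750, 441, 619 and 505 FPKM at 24 hr. The values at 6 and 24 hr overlapped each other but not those at 0 hr. The differences from 0 hr were -2.71 ± 0.23 and -2.16 ± 0.23 in log2(FPKM + 1). The order of the 6 groups for P2ry12 was control 0 hr, WM 0 hr, WM 24 hr, control 24 hr, WM 6 hr and control 6 hr, and of these neighbours only WM 0 hr and WM 24 hr were further apart than their SDs.

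Platelets also carry P2ry12, and the summed level of their marker genes (Gp9, Itga2b and Ppbp) was also lower after LPS. It was at 37.8 to 48.2 FPKM at 0 hr, 14.9 to 22.8 at 6 hr and 3.31 to 10.8 at 24 hr in control microglia, and at 34.8 to 50.5, 13.5 to 23.03 and 6.41 to 13.9 FPKM in WM repopulating cells. Gp9 made up most of this sum (43.1 FPKM in control microglia at 0 hr, against 0.106 for Itga2b and 0.416 for Ppbp) and was the only one of the 3 called lower, at both times in both arms (-1.35 and -2.38 in control microglia, -1.39 and -2.07 in WM repopulating cells), while Itga2b was called higher at 6 hr in control microglia (0.75). From 6 to 24 hr in control microglia Gp9 was called lower again (-1.04) while P2ry12 was called higher (0.95, limma adjusted p = 0.00179). The part of platelets in the level of P2ry12 was not tested.

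Gpr34 had the largest difference of the 9 members at 6 hr in both arms, and P2ry12 the largest at 24 hr. Control microglia held 859, 1110 and 774 FPKM at 0 hr and 40.5, 26.5, 79.4, 24.5 and 50.9 FPKM at 6 hr, a 20.6-fold lower mean. At 24 hr the 4 control libraries lay between 148 and 274 FPKM, above all 6 hr libraries and below all 0 hr libraries (24 and 6 hr did not overlap for 21% of all genes). The log2(FPKM + 1) difference was -4.45 ± 0.29 from 0 to 6 hr, -2.07 from 0 to 24 hr, and 2.38 ± 0.26 from 6 to 24 hr (limma adjusted p = 7.60e-07). WM repopulating cells went from 700 ± 89.4 FPKM at 0 hr to 58.9 ± 17.2 at 6 hr and 209 ± 45.9 at 24 hr (SD, n = 4), with differences of -3.58 ± 0.28 from 0 to 6 hr, -1.76 from 0 to 24 hr and 1.82 ± 0.28 from 6 to 24 hr (adjusted p = 8.13e-05).

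P2ry13, the other ADP receptor, fell as well. It averaged 283 ± 111 FPKM at 6 hr and 389 ± 120 at 24 hr in control microglia, 30.0% and 41.3% of the 0 hr mean. Control 6 hr replicate 2 held 96.1 FPKM, against 273 to 377 in the other 4 libraries. Without it the 6 hr difference was -1.52, against -1.87 ± 0.30 with it (limma adjusted p = 2.22e-05). Control 24 hr replicate 4 held 236.5 FPKM, against 366 to 524 in the other 3, and without it the 24 hr difference was -1.11 (adjusted p = 0.0160), against -1.33 with it (adjusted p = 0.00361). In WM repopulating cells P2ry13 averaged 875 ± 44.0 FPKM at 0 hr, 427 ± 25.1 at 6 hr and 461 ± 98.5 at 24 hr (SD, n = 4). The 24 hr call there (-0.95 ± 0.29, adjusted p = 0.0235) was lost without WM 0 hr replicate 2 or 4, or WM 24 hr replicate 4 (adjusted p = 0.0508 to 0.0855).

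Entpd1, the enzyme that removes ATP and ADP, fell at 6 hr in both arms. It went from 246 ± 21.2 to 107 ± 17.4 FPKM at 6 hr and 119 ± 13.2 at 24 hr in control microglia, and from 254 ± 23.7 to 109 ± 18.1 and 140 ± 19.3 FPKM in WM repopulating cells. The 6 hr differences were -1.21 ± 0.15 (limma adjusted p = 5.34e-07) and -1.22 ± 0.14 (adjusted p = 3.75e-07) in log2(FPKM + 1). The 95% interval for the difference between these responses was -0.43 to 0.42. Neither arm was called as changed between 6 and 24 hr, although WM repopulating cells were without WM 6 hr replicate 3 or WM 24 hr replicate 4 (adjusted p = 0.0496 and 0.0407, against 0.0877 with all libraries).

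P2rx7, an ATP-gated channel known for activating the inflammasome, dipped at 6 hr and was partly back at 24 hr. Control microglia held 34.2, 38.2 and 40.0 FPKM at 0 hr, 16.4, 9.93, 17.96, 12.8 and 19.2 FPKM at 6 hr, and 26.3, 28.2, 26.6 and 23.5 FPKM at 24 hr. The 3 time points did not overlap. The differences were -1.28 ± 0.15 from 0 to 6 hr (limma adjusted p = 3.42e-07; -1.14 without control 6 hr replicate 2, which held 9.93 FPKM) and 0.77 ± 0.14 from 6 to 24 hr (adjusted p = 2.05e-04). WM repopulating cells went from 47.6 ± 3.39 to 23.7 ± 2.19 and 32.9 ± 0.621 FPKM (SD, n = 4). The 6 hr difference there was -0.98 ± 0.15 (adjusted p = 1.08e-05).

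The smaller steps of P2rx7 were less firm. The control difference between 24 and 0 hr (-0.50 ± 0.16, limma adjusted p = 0.0241) was lost without control 0 hr replicate 2 or 3, or control 24 hr replicate 4 (adjusted p = 0.0552 to 0.0903). The rise between 6 and 24 hr in WM repopulating cells (0.46 ± 0.15, adjusted p = 0.0338) was lost when any library of these 2 groups other than WM 6 hr replicate 4 was left out (adjusted p = 0.0592 to 0.0923). At 24 hr against 0 hr the call in WM repopulating cells was -0.52 ± 0.15 (adjusted p = 0.0142).

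At 24 hr the 5 falling members were still called lower than at 0 hr in both arms, in control microglia against 9.23% of all genes and in WM repopulating cells against 8.29%. Of the 8 microglia marker genes, 6 were also called lower at 6 hr and at 24 hr in each arm. From 6 to 24 hr, 3 members were called higher in control microglia (P2ry12, Gpr34 and P2rx7, against 15% of genes) and 2 lower (Adora3 and P2ry14, against 13.3%), and 2 were called higher in WM repopulating cells (Gpr34 and P2rx7, against 8.19%).

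P2rx4 and P2ry6 were not called at any time after LPS in either arm. P2rx4 lay between 65.9 and 108 FPKM in the 12 control libraries. In WM repopulating cells it averaged 104.7 ± 9.26, 103.3 ± 7.21 and 133.5 ± 20.98 FPKM at 0, 6 and 24 hr (SD, n = 4), and the 24 hr libraries overlapped those at both other times. The log2(FPKM + 1) difference at 24 hr was 0.34 ± 0.15 from 0 hr (limma adjusted p = 0.135) and 0.36 ± 0.15 from 6 hr (adjusted p = 0.122), neither called. P2ry6 averaged 279 ± 34.8, 380 ± 75.5 and 285 ± 75.2 FPKM at 0, 6 and 24 hr in control microglia. Its difference at 6 hr was 0.43 ± 0.19 (limma adjusted p = 0.0685), and all 5 libraries at 6 hr (319 to 503 FPKM) were above the 3 at 0 hr (239 to 301 FPKM). At 24 hr control replicate 4 held 175 FPKM, against 297 to 338 in the other 3. The difference in P2ry6 between 24 and 6 hr, -0.44, lay just outside the threshold (adjusted p = 0.0598) and passed it with quantile normalization (adjusted p = 0.0311) and without control 6 hr replicate 3 or 5 or control 24 hr replicate 1 or 3 (adjusted p = 0.0364 to 0.0464). In WM repopulating cells P2ry6 was within 283 and 430 FPKM at every time.

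Adora3 rose at 6 hr in control microglia. The 0 hr libraries were at 39.1, 35.6 and 32.0 FPKM and the 6 hr libraries at 67.1, 136, 53.5, 67.3 and 61.7 FPKM, with no overlap. The difference was 1.02 ± 0.20 (limma adjusted p = 2.49e-04), and 0.79 without replicate 2 (adjusted p = 7.31e-05), the library at 136 FPKM. It fell again by 24 hr, to 37.8 to 48.5 FPKM, by 0.78 on the log2 scale (adjusted p = 0.0026). In WM repopulating cells Adora3 was at 46.1 ± 5.87, 56.6 ± 9.64 and 46.5 ± 3.29 FPKM, and the 6 hr difference of 0.28 ± 0.19 was not called.

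**Figure D2:**
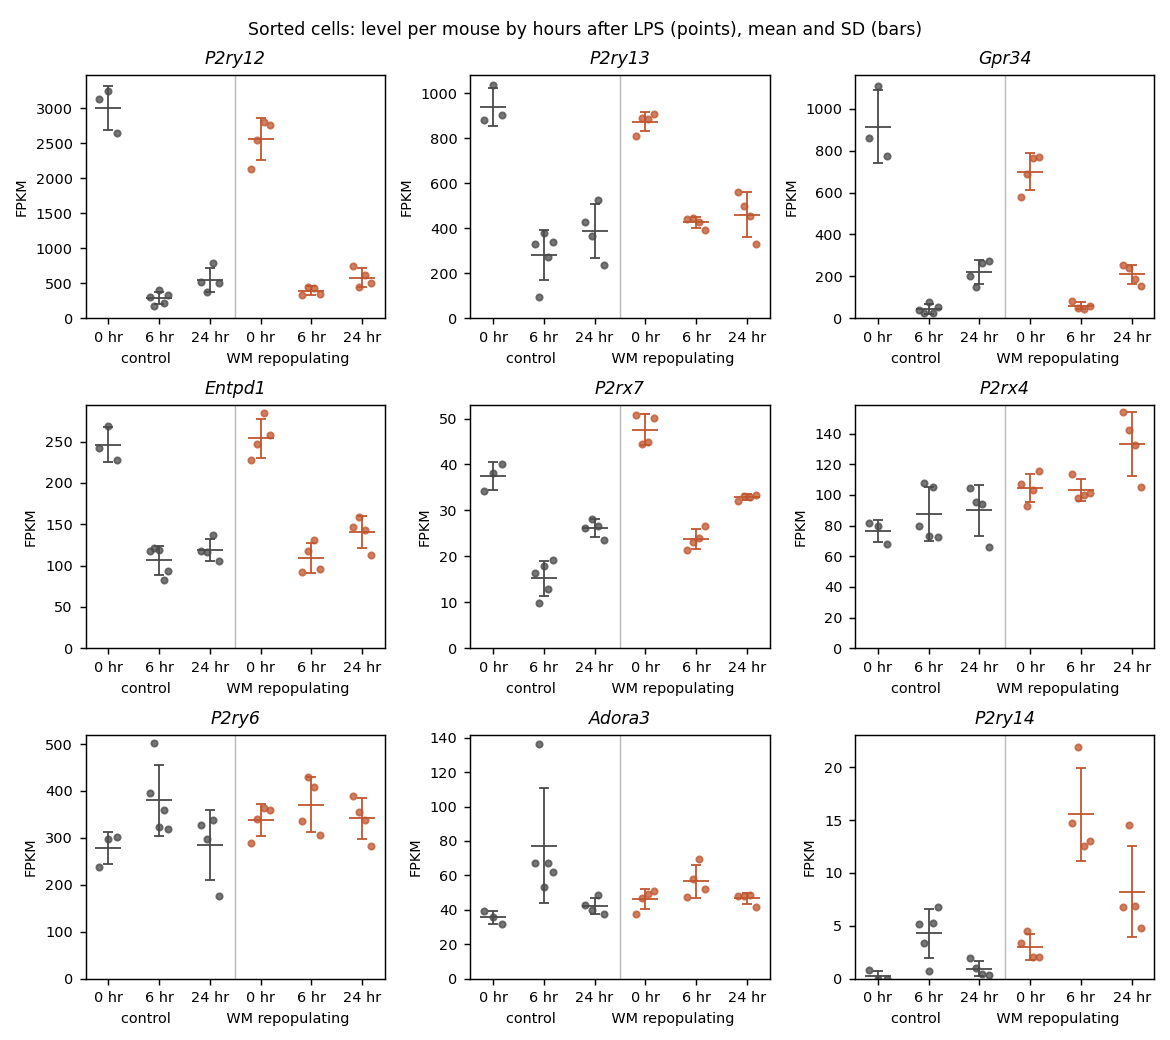
FPKM of each member in sorted cells at 0, 6 and 24 hr after LPS, for control microglia (grey) and WM repopulating cells (orange), one point per mouse with bars for the mean and SD (n = 3, 5 and 4 control, n = 4 WM at each time). P2ry12, P2ry13, Gpr34, Entpd1 and P2rx7 were lower after LPS, and P2ry14 was higher in WM repopulating cells than in control microglia at each time.

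**Figure D3:**
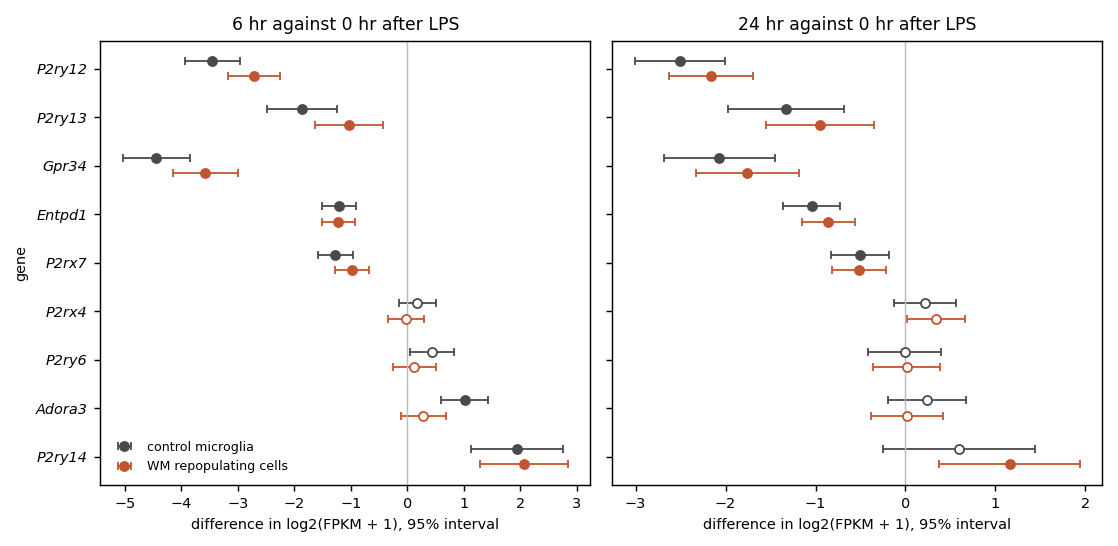
Difference from 0 hr in log2(FPKM + 1) with its 95% interval at 6 hr (left) and 24 hr (right), for control microglia (grey) and WM repopulating cells (orange). Filled points were called at an adjusted p under 0.05. Gpr34 had the largest fall at 6 hr in both arms (-4.45 and -3.58), and P2rx4 and P2ry6 were open points throughout.

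The responses of the 2 arms were compared directly. For the change from 0 to 6 hr, no member was called by limma as different between WM repopulating cells and control microglia (0.0237% of all genes were called), although P2ry12, Gpr34 and Adora3 had an unadjusted p under 0.05, as did 7.2% of all genes. For these the differences were 0.74 ± 0.33, 0.87 ± 0.40 and -0.73 ± 0.28 in log2(FPKM + 1), with adjusted p values of 0.669, 0.678 and 0.603. For the change from 0 to 24 hr, 0 of 9 members were called (0.0867% of all genes) and 0 had an unadjusted p under 0.05 (8.71%). Voom on recovered reads also called 0 members in each.

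P2ry14 was the only member called in WM repopulating cells against control microglia at all 3 times. At 0 hr it was at 3.39, 4.49, 2.001 and 2.07 FPKM (28 to 51 reads) in WM repopulating cells, above all 3 control libraries (0.828, 0 and 0 FPKM). At 6 hr it was at 14.8, 21.97, 12.5 and 12.99 FPKM in WM repopulating cells, against 5.21, 3.40, 0.720, 5.27 and 6.80 FPKM in control microglia. At 24 hr the values were 6.81, 14.5, 6.85 and 4.82 FPKM, against 1.92, 1.01, 0.458 and 0.364 FPKM. The groups did not overlap at any time, which held for 13.6%, 3.78% and 12.1% of all genes at 0, 6 and 24 hr. The log2(FPKM + 1) differences were 1.66 ± 0.41 at 0 hr (limma adjusted p = 0.0437), 1.78 ± 0.36 at 6 hr (adjusted p = 0.0211) and 2.22 ± 0.38 at 24 hr (adjusted p = 0.00127).

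The call at 0 hr was the least firm. It was lost when any library of these 2 groups other than control replicate 1 was left out (adjusted p = 0.0606 to 0.167), and voom on recovered reads gave an adjusted p of 0.168. At 6 hr the call was lost without WM 6 hr replicate 1 or 2 (adjusted p = 0.0693 and 0.120), at a pseudocount of 0.1 (adjusted p = 0.174) and with only these groups in the fit (adjusted p = 0.193). The 24 hr call was kept in all 17 alternatives run (adjusted p = 4.16e-04 to 0.0118).

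Within each arm P2ry14 was higher at 6 hr after LPS than at 0 hr, by 1.94 ± 0.39 in control microglia (limma adjusted p = 3.09e-04) and by 2.07 ± 0.38 in WM repopulating cells (adjusted p = 1.29e-04). The control libraries at 0 and 6 hr overlapped, because control 6 hr replicate 3 held 0.720 FPKM. In control microglia it fell again between 6 and 24 hr, by 1.35 on the log2 scale (adjusted p = 0.00664), but the libraries at the 2 times overlapped and voom on recovered reads did not call it (adjusted p = 0.0503). In WM repopulating cells it went from a mean of 15.6 FPKM at 6 hr to 8.24 FPKM at 24 hr, also with overlap, a difference of -0.91 ± 0.38 that was not called (limma adjusted p = 0.108) but was with only these groups in the fit (adjusted p = 0.0401), with voom (adjusted p = 0.0487) and without WM 24 hr replicate 2 (adjusted p = 0.0412). At 24 hr it was called above 0 hr in WM repopulating cells (1.16 ± 0.38, adjusted p = 0.0338; 1 member higher, against 10.5% of all genes). That call was lost without WM 0 hr replicate 3 or 4, or WM 24 hr replicate 1, 2 or 3 (adjusted p = 0.0527 to 0.135), and at a pseudocount of 0.1 (adjusted p = 0.146). At that pseudocount P2ry14 was also called higher at 24 than at 0 hr in control microglia (adjusted p = 0.0399, against 0.325 at a pseudocount of 1).

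Monocyte genes moved with P2ry14 over time. Their summed level was 101 to 328 FPKM in control microglia and 124 to 390 in WM repopulating cells at 0 hr, 1151 to 2278 and 1158 to 3208 at 6 hr, and 427 to 545 and 137 to 661 at 24 hr, with all 5 genes above 0 in every library. At each time the 2 arms overlapped in this sum while they did not in P2ry14, and none of the 5 was called between the arms at 0 or 6 hr. At 24 hr 1 of the 5, Fn1, was called higher in WM repopulating cells (1.86 ± 0.33, limma adjusted p = 0.00178), at 11.2 to 16.8 FPKM against 1.75 to 6.20 FPKM, with no overlap. Over the 24 sorted libraries, Fn1 was also the gene most like P2ry14 (Pearson's r = 0.873). Neutrophil genes also overlapped between the arms (1742 to 8552 and 2755 to 10420 FPKM at 0 hr, 862 to 5504 and 411 to 10020 at 6 hr, and 6068 to 14150 and 3064 to 7026 at 24 hr). The summed level of border-associated macrophage genes was lower in WM repopulating cells with no overlap at 0 and 24 hr and overlapped at 6 hr, and of these genes 1, Mrc1, was called, at 24 hr. Border-associated macrophage genes (Mrc1, Cd163, Lyve1, Pf4 and Cbr2 summed) were at 31.7 to 99.3 FPKM in control microglia and 17.8 to 27.6 FPKM in WM repopulating cells at 0 hr, at 10.4 to 22.3 and 7.65 to 10.8 FPKM at 6 hr, and at 32.7 to 39.8 and 9.32 to 18.2 FPKM at 24 hr. The summed endothelial genes were at 8.32 to 12.8 FPKM in control microglia and 2.40 to 5.07 FPKM in WM repopulating cells at 0 hr, at 6.79 to 14.8 and 5.25 to 6.88 FPKM at 6 hr, and at 7.57 to 12.7 and 1.51 to 7.19 FPKM at 24 hr, with no overlap at 0 and 24 hr. The summed astrocyte genes were at 55.1 to 61.2 and 37.2 to 51.8 FPKM at 0 hr, with no overlap, and overlapped at 6 and 24 hr. Among the marker lists, Pecam1, an endothelial marker, was called lower in WM repopulating cells at 0 and 24 hr (-1.54 and -1.56), and Mrc1, the astrocyte marker Aldoc and the microglia gene Fcrls were called lower at 24 hr (-1.19, -1.12 and -1.13), while Ms4a4b, a lymphocyte marker, was called higher at 0 hr (1.04). The part of these cell types in the differences between the arms was not tested.

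**Figure D4:**
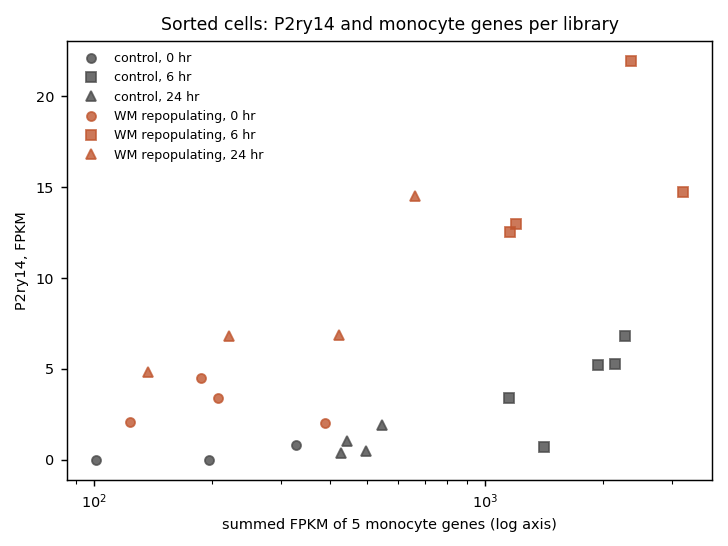
P2ry14 (FPKM) against the summed FPKM of 5 monocyte genes (log axis) in each of the 24 sorted libraries, for control microglia (grey) and WM repopulating cells (orange) at 0 (circles), 6 (squares) and 24 hr (triangles). Both rose at 6 hr, and at each time the WM libraries lay above the control libraries in P2ry14 while the ranges of the monocyte sum overlapped.

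P2rx7 and P2rx4 were each called between the arms once. P2rx7 was at 21.3 to 26.6 FPKM in WM repopulating cells at 6 hr, above the 9.93 to 19.2 FPKM of control microglia, a difference of 0.63 ± 0.14 (limma adjusted p = 0.0417). This call was lost without control 6 hr replicate 1, 2 or 4, or any WM 6 hr library (adjusted p = 0.0513 to 0.159), with only these groups in the fit (adjusted p = 0.332) and with no variance trend (adjusted p = 0.0568). P2rx7 was also higher in every WM library than in every control library at 0 hr and at 24 hr, without a call (adjusted p = 0.396 and 0.245), and without control 6 hr replicate 2 its 6 hr difference was 0.50 (adjusted p = 0.0649). P2rx4 was at 154, 143, 132 and 105 FPKM in WM repopulating cells at 24 hr and at 104, 95.6, 94.2 and 65.9 FPKM in control microglia, a difference of 0.57 ± 0.15 (adjusted p = 0.0369). The call was lost without control 24 hr replicate 2, 3 or 4, or WM 24 hr replicate 1, 2 or 3 (adjusted p = 0.0528 to 0.125, the latter with a difference of 0.43 without control 24 hr replicate 4), with only these groups in the fit (adjusted p = 0.127) and with no variance trend (adjusted p = 0.0542). At 0 hr all 4 WM libraries (93.0 to 115 FPKM) were also above the 3 control libraries (67.9 to 81.6 FPKM) in P2rx4, a difference of 0.45 ± 0.17 that was not called (limma adjusted p = 0.232). Of the 9 members, 1 was called higher in WM repopulating cells at 0 hr, 2 at 6 hr and 2 at 24 hr, against 0.717%, 0.213% and 1.68% of all genes.

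P2ry12, P2ry13, Gpr34, Entpd1, P2ry6 and Adora3 were not called between the arms at any time. At 0 hr the difference in P2ry12 was -0.24 with a 95% interval of -0.74 to 0.27, and that in Gpr34 was -0.38 with an interval of -0.998 to 0.244, all 4 WM libraries (578 to 770 FPKM) lying below the 3 control libraries (774 to 1110 FPKM). At 6 hr all 4 WM libraries were above the 5 control libraries in P2ry13 (391 to 447 against 96.1 to 377 FPKM), a difference of 0.73 ± 0.28 that was not called (limma adjusted p = 0.361).

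**Figure D5:**
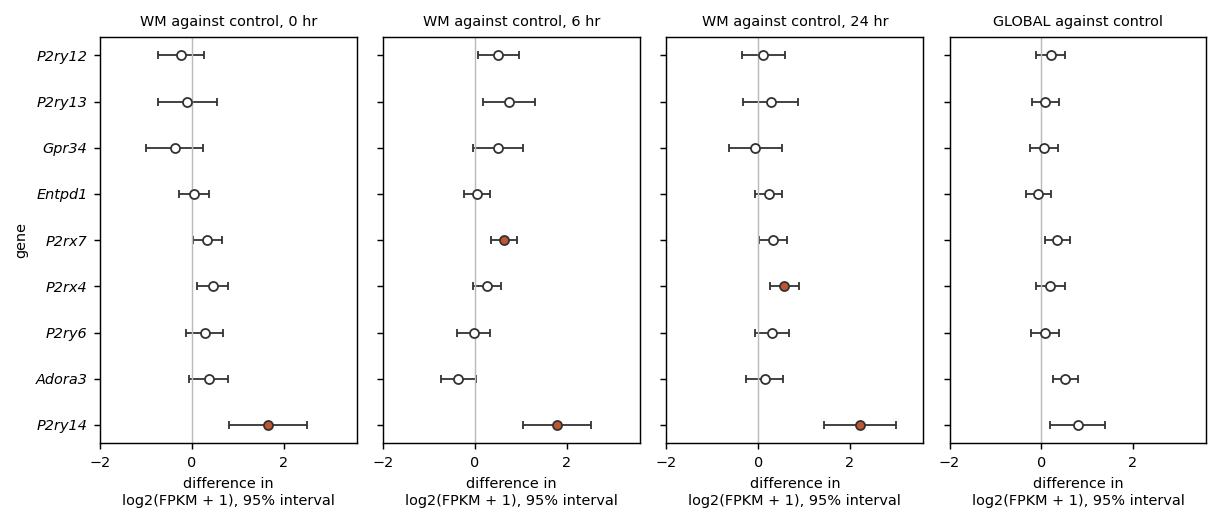
Difference between repopulating and control cells in log2(FPKM + 1) with its 95% interval, for WM repopulating cells at 0, 6 and 24 hr after LPS and for GLOBAL repopulated cells. Orange points were called at an adjusted p under 0.05, which held for P2ry14 at 0, 6 and 24 hr (1.66, 1.78 and 2.22), P2rx7 at 6 hr and P2rx4 at 24 hr.

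In the GLOBAL experiment no member was called between repopulated and control cells. Over all genes 0% were called by limma, 3 members had an unadjusted p under 0.05, and voom on recovered reads called 0 members, and 14 genes higher and 10 lower in all. Those 3 members, P2ry14, Adora3 and P2rx7, had no overlap between groups. The same held for 9.03% (unadjusted p) and 9.96% (no overlap) of all genes. Adora3 was at 61.0, 64.5 and 68.1 FPKM in repopulated cells and at 43.3, 47.1, 42.0 and 46.4 FPKM in control cells (0.52 ± 0.12, limma adjusted p = 0.275). P2rx7 was at 86.6 to 101 FPKM against 67.7 to 76.8 FPKM (0.35 ± 0.12, adjusted p = 0.471). P2ry14 was at 2.26, 1.76 and 2.15 FPKM (11 to 17 reads) against 0.492, 1.51, 1.06 and 0.229 FPKM (2 to 6 reads), a difference of 0.80 ± 0.27 (adjusted p = 0.450). Monocyte genes were at 98.7 to 312 FPKM in repopulated and 167 to 931 FPKM in control cells, border-associated macrophage genes at 13.7 to 16.9 and 23.4 to 32.1 FPKM, endothelial genes at 7.88 to 11.8 and 14.97 to 21.6 FPKM, astrocyte genes at 22.8 to 26.5 and 28.6 to 30.4 FPKM, and platelet genes at 56.7 to 62.95 and 33.2 to 53.2 FPKM. Within the platelet list, Gp9 was higher in repopulated cells (0.57, limma adjusted p = 0.382) and Itga2b lower (-0.22, adjusted p = 0.818), neither called. Neutrophil genes were at 1252 to 4463 FPKM in repopulated and 2077 to 22360 FPKM in control cells. Their part in these differences was not tested. P2ry12 averaged 1110 ± 62.3 FPKM in repopulated cells (SD, n = 3) and 967 ± 95.9 FPKM in control cells (SD, n = 4). The 95% intervals of the log2(FPKM + 1) difference were -0.12 to 0.52 for P2ry12, -0.20 to 0.38 for P2ry13, -0.24 to 0.36 for Gpr34 and -0.34 to 0.21 for Entpd1.

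Likeness was measured as Pearson's r of log2(FPKM + 1) across libraries of a table, which share group structure and depth. Over the 15 SVZ libraries the genes most like P2ry12 were P2ry13 (r = 0.994), Siglech (0.990), Itgam (0.989), Abi3 (0.989) and Gpr34 (0.988). Over the 24 sorted libraries they were Rgs10 (0.975), Bend6 (0.971), Gm10790 (0.970), Fam212a (0.969) and Sesn1 (0.966). Gpr34 was closest to Tbc1d16, Blnk and Gm10790 in sorted cells, and P2ry14 to Fn1 (0.873), 2010111I01Rik (0.865) and Scimp (0.860). P2ry12 and P2ry14, neighbours in the genome, had r = 0.06 in SVZ tissue and -0.49 in sorted cells, against 0.99 and 0.89 for P2ry12 and P2ry13.

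The other purinergic and lysophosphatidylserine genes (receptors, nucleotide and nucleoside enzymes, nucleoside transporters and ATP release genes) were counted in each comparison, beside the share of all genes. In SVZ tissue, 0 of 23 tested were called by limma in any comparison, with 0, 5 and 4 at an unadjusted p under 0.05, against 6.12%, 16.6% and 16.5% of all genes. Of 21 tested in sorted cells, 7 were called higher (21.4% of all genes) and 8 lower (21.1%) at 6 hr in control microglia, and 6 higher (19.3%) and 5 lower (19.5%) in WM repopulating cells. The receptors P2ry2, for ATP and UTP, and Adora2b, for adenosine, rose in both arms. P2ry2 went from 0.283 ± 0.252 to 23.9 ± 18.2 FPKM in control microglia (difference 4.04) and from 0.894 ± 1.19 to 12.6 ± 3.22 FPKM in WM repopulating cells (2.99). Adora2b went from 0.222 ± 0.212 to 18.8 ± 6.47 FPKM (3.98) and from 0.651 ± 0.675 to 16.4 ± 8.29 FPKM (3.36). Slc29a3, a nucleoside transporter of endosomes and lysosomes, fell by 1.64 and 1.46 on the log2 scale, and Abhd12, which degrades lysophosphatidylserine, fell by 1.38 and 1.10. The other genes called higher in both arms were Adora2a, Slc28a2, Slc29a2 and Pla1a, and those called lower in both were Slc29a1, Kcnk13 and Entpd5, while Adk (higher), Ada, P2rx1 and Enpp1 (lower) were called in control microglia. At 24 hr against 0 hr, 5 were called higher and 0 lower in control microglia (Adk, Adora2b, Slc28a2, Pla1a and P2ry2, against 12.1% and 9.23% of all genes), and 2 higher (Slc28a2 and P2ry2, against 10.5%) and 1 lower (Slc29a1, against 8.29%) in WM repopulating cells. From 6 to 24 hr, Abhd12, Slc29a3, Ada and the adenosine receptor Adora1 were called higher and P2ry2, Adora2b, Slc28a2 and Slc29a2 lower in both arms (15% of all genes higher and 13.3% lower in control microglia, 8.19% and 7.5% in WM repopulating cells), while Slc29a1 and Slc17a9, the vesicular nucleotide transporter, were called higher in control microglia (0.52 and 0.82). Between the arms, 0 of 21 were called by limma at 0 and 6 hr (0 and 2 at an unadjusted p under 0.05, against 11.9% and 9.18% of all genes), and at 24 hr the 1 call was Slc29a1, a nucleoside transporter that was lower in WM repopulating cells by 0.55 on the log2 scale (2.29% of all genes were called lower). In the GLOBAL experiment 0 of 25 were called by limma, with 3 at an unadjusted p under 0.05, against 9.03% of all genes.

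Among genes around the members, those that span a member are described here. In RefSeq, Camkk2 (chr5:122718380-122779522) also overlaps part of P2rx4 (chr5:122707518-122729739). In GENCODE vM21 no protein-coding gene overlaps P2rx4, and its exons share no base with another gene. Med12l, which spans the chromosome 3 cluster, was at 11.4 FPKM in control microglia at 0 hr and 6.99 at 6 hr, and Cask, which spans Gpr34, was at 12.2 and 2.78 FPKM. Both were called lower at 6 hr in control microglia (-0.70 and -1.81), and Cask in WM repopulating cells (-1.08). Whether counting used strand is not given in the sources used here, so reads of Cask introns and Gpr34, or of Med12l and its P2ry genes, may not be fully separated.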

How the data were processed

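RNA was sequenced from SVZ tissue (15 libraries) and from CD11b+CD45int cells (24 and 7 libraries). Per the study's methods, libraries were made with Smart-seq2 and Nextera, aligned with STAR, counted with Rsubread, and quantified as RPKM with limma and edgeR, and the submitters' processing notes also name featureCounts and the mm10 build. The extract protocol in the labels describes another library preparation, which was not reconciled here. The authors deposited FPKM per gene in 3 tables, normalised separately. Whether counting used strand is not given in the sources used here.

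Genes with at least 1 FPKM in at least 3 libraries were tested (14151, 12684 and 16651 genes, including 8, 9 and 9 members) on the log2(FPKM + 1) scale. The tool was limma 3.58.1 (R 4.3.3), using a variance trend, with all groups of a table in one fit and Benjamini-Hochberg adjustment. Such differences understate changes of low genes. Whole reads, to a tolerance of 0.05, were recovered for at least 99.99% of genes and used for depth and for limma voom, an alternative chosen after seeing the data. The samples are separate mice by label, and p-values measure the spread between them. The script was tested on simulated data. All 9 members are described in every group. The genes of highest correlation, the called genes of the other purinergic lists and the neighbours of members are named by rule, and marker genes that differed between the arms were named after their values were seen. The members and lists were chosen with earlier results of these data known. 1 microglia marker gene is not reported here and was left out of the list. Promoter windows were taken from RefSeq for 7 of 9 members, and positions from GENCODE vM21.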

Additional observations from a re-analysis of the deposited data

Results flagged for a closer look

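Of 81 sets of 4 or 5 libraries checked (a member in a group), 3 held a library far from the others by Dixon's test, which chance does in about 1 in 20 groups. Adora3 was at 136.4 FPKM in control 6 hr replicate 2, against 53.5 to 67.3 in the other 4 libraries. Adora3 was at 41.61 FPKM in WM 24 hr replicate 4, just under the 48.0 to 48.5 of the other 3. P2ry6 was at 232.1 FPKM in GLOBAL control replicate 3, against 296 to 304 in the other 3. No member was called as responding differently to LPS in WM repopulating cells and control microglia.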

How the results depend on the processing

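No single member value reversed its direction in 803 recomputed values, of which 740 kept their side of the threshold and 63 lost the call, 39 of them on leaving out 1 library. Members called between WM 0 hr and control 0 hr went from 1 to 0 with no expression limit, with quantile normalization and with voom on recovered reads (chosen after seeing the data), and ranged from 0 to 1 on leaving out 1 library. With a log2 limit of 1 in either direction added, members called went from 5 to 2 between control 24 and 6 hr, from 6 to 3 between WM 24 and 0 hr, from 2 to 1 between WM 24 and 6 hr, and from 2 to 1 between the arms at 6 and at 24 hr, and 1 fewer was called in both SVZ comparisons with control (Entpd1), between control 24 and 0 hr and between WM 6 and 0 hr (P2rx7). With only the compared groups in the fit, members called were 4 between WM 24 and 6 hr, 0 between the arms at 6 hr and 1 at 24 hr. Without a variance trend they were 1 between the arms at 6 hr and 1 at 24 hr, and at a pseudocount of 0.1 they were 1 at 6 hr. On leaving out 1 library they ranged from 1 to 2 between WM 24 and 6 hr, from 0 to 2 between the arms at 6 hr, from 1 to 2 at 24 hr, and from 4 to 6 between WM 24 and 0 hr. Members that were not called gained a call in 16 values, 7 of them on leaving out 1 library. Between WM 24 and 6 hr these were P2ry12 and P2ry14 with only the compared groups in the fit (adjusted p = 0.04996 and 0.0401), P2ry14 also with voom (0.0487) and without WM 24 hr replicate 2 (0.0412), and Entpd1 on leaving out 1 library.

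Over all genes, 61 of 274 counts of calls moved by over 1.5 times, 36 of them on leaving out 1 library, and the shares of all genes set beside the members move with them. On leaving out 1 library the calls went from 180 to between 153 and 330 at recovery against control in SVZ tissue, from 46 to between 23 and 86 at recovery against 14 day PLX3397, from 154 to between 75 and 108 between the arms at 0 hr, from 41 to between 23 and 75 at 6 hr, from 503 to between 291 and 438 at 24 hr, from 3 to between 0 and 3 and from 11 to between 6 and 24 for the difference in response at 6 and 24 hr, and from 0 to between 0 and 1 in GLOBAL. The log2 limit of 1 moved 12 of the counts, to 2381 from 5390 between control 6 and 0 hr and to 1952 from 4921 between WM 6 and 0 hr, for example. With only the compared groups in the fit, calls between the arms were 11 higher and 5 lower at 6 hr and 103 and 152 at 24 hr. Median ratio scaling moved the share of calls that were higher between the arms at 24 hr from 42.4% (213 higher and 290 lower) to 32.1% (179 and 378).

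The deviations of mice that share a replicate number had r over 0.1 in 5 of 15 pairs in SVZ, 7 of 55 in the LPS experiment and 2 of 3 in GLOBAL (0.056 to 0.137, against a mean of -0.033 for other pairs). As this did not hold for every pair in any table, the numbers were not taken as pairs. With the replicate block, 8 members were called between control 6 and 0 hr and 6 between control 24 and 6 hr, the member gained being P2ry6 in both (0.57, limma adjusted p = 0.0155, and -0.50, adjusted p = 0.0291), no other count of members changed, and GLOBAL had 15 genes higher and 40 lower, against 0 and 0 without the block. In SVZ after PLX3397 the low receptors rest on a few reads per library, which limits their precision.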

Other observations

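The composition of the 9 members shifted with LPS. Their summed level in control microglia was 5537 ± 557 FPKM at 0 hr (SD, n = 3), 1282 ± 122 at 6 hr (n = 5) and 1717 ± 363 at 24 hr (n = 4). P2ry12 made up 54.3% of this sum at 0 hr and 21.9% at 6 hr, whereas P2ry6, which was not called, went from 5.07% to 30.1%. These shares are descriptions of the same libraries and were not tested.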
